A study of Mus musculus with 9 samples.

Results

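The comparison sets freshly isolated mouse mammary epithelial cells (ME) against mammary-type cultures grown from induced pluripotent stem cells (iPSCs) of tail-tip fibroblasts (D-TF-iPSC). Its members are the 3 arrays titled as ME cells and the 3 arrays titled as differentiated fibroblast-derived iPSCs, 6 of the 9 arrays of the series; the other 3 hold iPSC cultures of ME origin (D-ME-iPSC) and enter only to estimate the spread and to place ME replicate 1. The D-TF-iPSC lines came from fibroblasts of 2-month-old mice that received retroviral Oct4, Sox2, Klf4 and c-Myc together with an EOS-driven EGFP reporter, and they were then kept 3 days on Matrigel and reseeded for 6 days more, both in mammary growth medium. The methods give 2- and 6-month-old virgin females as the source of the ME cells taken for reprogramming, and the study describes its implanted ME and iPSC-derived cells as carrying beta-galactosidase. Whether either holds for the cells on the arrays, the strain of the donors, the sex of the fibroblast donors, the number of iPSC clones behind the D-TF-iPSC arrays, and whether the 3 arrays of a group are separate animals or cultures were not given in the sources used here, so p-values measure only the spread between these arrays, which may be technical. Cell origin, reprogramming and culture all differ between the groups and cannot be told apart here.

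The mammary epithelium is a bilayer: inner luminal cells, of which alveolar cells secrete caseins and milk fat and hormone-sensing cells carry the oestrogen receptor, and outer basal myoepithelial cells that contract to expel milk. Casein transcription follows prolactin through the factor STAT5, with the ETS factor Elf5 as a partner. Fibroblasts, by contrast, make fibrillar collagens, the enzymes that cross-link them and the metalloproteinases that remodel them.

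The values are log2 expression values, and a gene stands for the average over those of its probe sets that name 1 gene only, for 20422 genes. Array medians over all probe sets lay between 7.45 and 7.61. Pearson's r over genes was 0.994 to 0.996 among the D-TF-iPSC arrays and 0.973 between ME replicates 2 and 3. The array labelled ME replicate 1 stood apart from its group: its r was 0.92 and 0.943 with ME replicates 2 and 3, and 0.991 to 0.993 with the 3 D-ME-iPSC arrays. In 81.5% of genes its value lay nearer the D-ME-iPSC mean than the mean of ME replicates 2 and 3. It was kept under its label, and differences called with all arrays are followed by the value from ME replicates 2 and 3 only. Each fit pooled the spread of a gene over all groups fitted. Without ME replicate 1, the culture arrays, which lay closer together, therefore set most of it. The p-values of that fit can understate the spread of ME. In that fit, array weights, which are lower for arrays that vary more, were 0.272 for both ME replicates 2 and 3. The culture arrays had 1.09 to 2.48. Sex-linked genes could not test the label of ME replicate 1, because all groups had high Xist and low Y-linked values. Xist, the RNA of the inactive X chromosome, had values of 10.92 to 11.78 in the 6 arrays compared. In D-ME-iPSC it had 10.91, 10.86 and 10.72. Eif2s3y, Kdm5d and Uty of the Y chromosome had values of 3.88 to 5.73 in the 6 arrays and 4.02 to 5.71 in D-ME-iPSC. Of these 4 genes, 0 differed in either fit.

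The largest difference was that of a milk gene. Csn1s1, which encodes the casein alpha s1, had log2 expression values of 11.32, 12.97 and 13.07 in ME replicates 1 to 3, against 5.26, 5.16 and 5.23 in D-TF-iPSC. The groups did not overlap, as held in one direction or the other for 29.4% of all genes, and ME replicate 1 was the lowest of the ME arrays. By limma, the log2 difference was 7.24 (standard error 0.38, adjusted p = 1.1e-05), and it was 7.80 (adjusted p = 8.0e-11) without ME replicate 1. Csn2, the beta casein, had 8.52, 12.17 and 12.48 in ME and 6.13, 5.88 and 6.14 in D-TF-iPSC. Here ME replicate 1 lay between the other ME arrays and the D-TF-iPSC arrays, and the log2 difference was 5.01 (standard error 0.85, adjusted p = 0.0041 by limma) with it and 6.28 without it.

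The promoters of these caseins are shown because both genes mark the comparison and both hold the STAT5 motif TTCNNNGAA, whose letters are in capitals. The motif reads the same on both strands. The windows run from 250 bases before to 50 bases after the RefSeq gene start on build GRCm38.p6, Csn1s1 at chr5:87665958-87666257 on the plus strand and Csn2 at chr5:87699376-87699675 on the minus strand.
Csn1s1: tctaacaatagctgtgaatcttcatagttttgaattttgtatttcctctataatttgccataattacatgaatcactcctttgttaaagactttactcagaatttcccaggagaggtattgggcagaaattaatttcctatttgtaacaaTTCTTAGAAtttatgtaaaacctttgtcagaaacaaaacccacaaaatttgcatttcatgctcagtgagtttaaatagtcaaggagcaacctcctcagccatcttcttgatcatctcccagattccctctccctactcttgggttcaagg
Csn2: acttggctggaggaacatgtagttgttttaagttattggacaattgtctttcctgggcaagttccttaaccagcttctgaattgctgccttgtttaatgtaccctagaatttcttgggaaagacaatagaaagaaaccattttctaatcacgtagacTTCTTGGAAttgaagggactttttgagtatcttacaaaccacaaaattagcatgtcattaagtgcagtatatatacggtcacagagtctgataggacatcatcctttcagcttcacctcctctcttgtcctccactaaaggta
The motif began 100 bases before the start of Csn1s1 and 93 bases before that of Csn2. It stood in 8.3% of all 32851 promoter windows and in 5 of the 13 windows (38.5%) of the 12 milk protein genes found in the table, the other 3 being Glycam1, Csn1s2a and Pigr; in the last 2 it lay after the gene start. A match is a description of these letters and does not show that a factor was bound.

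The remaining genes that mark the comparison on the ME side were a transcription factor of luminal cells, an adhesion molecule and a stress factor. Elf5, an ETS factor needed for alveolar development, had values of 8.46, 11.52 and 10.62 in ME against 6.23, 6.21 and 5.96 in D-TF-iPSC, a log2 difference of 4.07 (standard error 0.61, adjusted p = 0.0022 by limma) and of 4.94 without ME replicate 1. Ceacam1, a cell adhesion molecule of epithelial cell surfaces, had 10.97, 12.34 and 12 against 7.09, 7.05 and 7.03, a log2 difference of 4.72 (standard error 0.29, adjusted p = 1.7e-05 by limma) and of 5.12 without ME replicate 1. Atf3, a transcription factor induced by many stresses, had 10.01, 11.28 and 11.50 against 7.72, 7.55 and 7.43, a log2 difference of 3.36 (standard error 0.32, adjusted p = 0.00018 by limma) and of 3.82 without ME replicate 1. In all 3 genes each ME array lay above each D-TF-iPSC array.

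On the D-TF-iPSC side stood the collagenase Mmp13, the calcium-binding protein S100a4, much used as a fibroblast marker, and the secreted protease Adamts6. Mmp13 had values of 7.18, 5.71 and 5.84 in ME against 10.16, 10.21 and 10.27 in D-TF-iPSC, a log2 difference of -3.97 (standard error 0.33, adjusted p = 8.0e-05 by limma) and of -4.44 without ME replicate 1. S100a4 had 9.18, 6.97 and 7.42 against 11.18, 11.45 and 11.65, a log2 difference of -3.57 (standard error 0.46, adjusted p = 0.00099) and of -4.23. Adamts6 had 8.14, 5.56 and 5.26 against 9.73, 9.72 and 9.65, a log2 difference of -3.38 (standard error 0.61, adjusted p = 0.0057) and of -4.29. For each of the 8 genes ME replicate 1 was the ME array nearest to D-TF-iPSC.

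**Figure D1:**
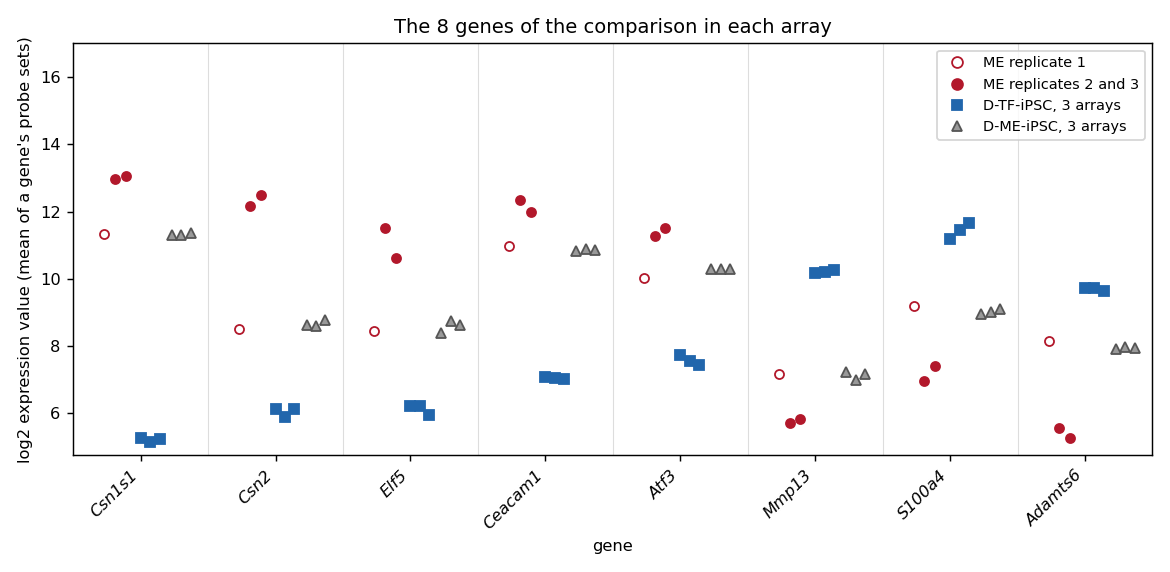
Log2 expression values (y axis) of the 8 genes that mark the comparison (x axis), 1 point per array, with ME replicate 1 as an open circle, ME replicates 2 and 3 as filled circles, D-TF-iPSC as squares and D-ME-iPSC as triangles. In each gene the ME circles lie on one side of the squares, and the open circle lies beside the triangles, as for Csn1s1 at 11.32 against 11.31, 11.29 and 11.35 in D-ME-iPSC.

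The single probe sets of these genes ran mostly the same way. All probe sets of Csn1s1 (16), Elf5 (9) and Ceacam1 (8) had every ME array above every D-TF-iPSC array, as had 4 of 5 for Csn2 and 5 of 6 for Atf3. All probe sets of Mmp13 (11) and S100a4 (3) had every ME array below, as had 26 of 29 for Adamts6. The share of all probe sets without overlap was not counted, so these counts have no background. All of these genes but Atf3 also met the naming rule for large differences without overlap. Probe sets of a gene were read in the same arrays, so their agreement was likely from the start and is not replication. When only the brightest probe set stood for the gene, the log2 difference of Csn1s1 was 2.92, that of Csn2 was 1.85 and no longer passed the test with all arrays, and that of Adamts6 was -0.28 and passed in neither fit. The methods' t-test after adjustment called Csn1s1, Ceacam1 and Mmp13 with all arrays and all 8 genes without ME replicate 1.

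Over all genes, limma called 3326 of 20422 (16.3%) at an adjusted p under 0.05, 1532 higher (7.5%) and 1794 lower (8.78%) in ME than in D-TF-iPSC. Without ME replicate 1 it called 7992 (39.1%), 3342 higher (16.4%) and 4650 lower (22.8%); each of the 3326 genes was among them with an unchanged sign. The median log2 difference of all genes was 0.01 in the fit to all arrays and 0.04 without ME replicate 1. These shares and medians are the background for the counts of every gene list below. The count with all arrays was 1824 to 1964 when any single D-TF-iPSC array was left out, 1824 of them without D-TF-iPSC replicate 2, and 1752 when only the 6 arrays of both groups were fitted; the methods' t-test after adjustment called 623 and did not pass 95 of the 129 called genes that the naming rule gave from this fit. Further genes with large differences and no overlap, outside the gene lists except for Ehf, were on the ME side Clca2, a membrane protein of epithelia (log2 difference 4.75, 4.63 without ME replicate 1), Gm10573 (4.73 and 5.76), Pdk4, a kinase that restrains glucose oxidation (4.17 and 4.43), the epithelial ETS factor Ehf (3.98 and 4.41) and Fam83b (3.96 and 4.05). On the D-TF-iPSC side such genes were 9930013L23Rik (-3.99 and -4.08), 9930111J21Rik (-3.87 and -4.23), Fibin (-3.54 and -4.01), Trim12 (-3.31 and -3.74), the Wnt antagonist Dkk2 (-3.19 and -3.60), the retinal dehydrogenase family member Aldh1a7 (-3.13 and -2.88) and the chemokine Ccl12 (-3.11 and -3.19). Csn1s2a, Muc15, Cxcl2, P4ha3 and Lyz2 had differences of like size or larger and are given with their lists. Clca2 had values of 11.39, 11.31 and 10.73 in ME against 6.39, 6.50 and 6.27 in D-TF-iPSC, and 9930013L23Rik had 6.41, 6.26 and 5.99 against 10.04, 10.23 and 10.36; ME replicate 1 lay close to the other ME arrays in both.

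Milk protein genes that passed the test were higher in ME with 1 exception. Of 17 measured genes, 8 were higher and 1 lower with all arrays (52.9% called, median log2 difference 1.49, all genes 0.01), and 14 were higher and 1 lower without ME replicate 1 (88.2% called, median 2.03, all genes 0.04). Csn1s2a, another alpha casein, had values of 7.26, 12.46 and 12.41 in ME against 4.71, 5.00 and 5.11 in D-TF-iPSC, a log2 difference of 5.77 (adjusted p = 0.0090 by limma) and of 7.49 without ME replicate 1. Muc15, a mucin of the milk fat globule membrane, had 8.67, 12.25 and 12.12 against 5.79, 5.34 and 5.60, a log2 difference of 5.43 (adjusted p = 0.0018) and of 6.61. In both genes ME replicate 1 lay between the other ME arrays and D-TF-iPSC. The remaining genes higher with all arrays were Glycam1, Csn3, Btn1a1 and Muc1, named after their values were seen. Of these, Csn3, the kappa casein that holds micelles together, had 8.90, 11.18 and 10.92 against 7.07, 7.14 and 7.21 (log2 difference 3.19 and 3.91). Glycam1, a mucin-like whey protein, had 6.78, 12.02 and 11.18 against 6.30, 6.27 and 6.23, with ME replicate 1 much nearer to D-TF-iPSC than to the other ME arrays (log2 difference 3.73, adjusted p = 0.046 by limma, and 5.33 without ME replicate 1). Fits without another single array are not given for Glycam1, Csn3, Btn1a1 and Muc1. The call of Glycam1, so near the threshold, may not hold in them. The one lower gene was Spp1, which encodes the secreted phosphoprotein osteopontin: 12.09, 10.42 and 10.98 against 12.40, 12.38 and 12.50, a log2 difference of -1.26 (adjusted p = 0.032) that passed in none of the 8 fits without another single array (-1.29 to -0.89) and was -1.73 (adjusted p = 1.3e-05) without ME replicate 1. The brightest probe set gave 3.42 for Csn1s2a with all arrays, which did not pass, and 4.87 without ME replicate 1, which did.

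**Figure D2:**
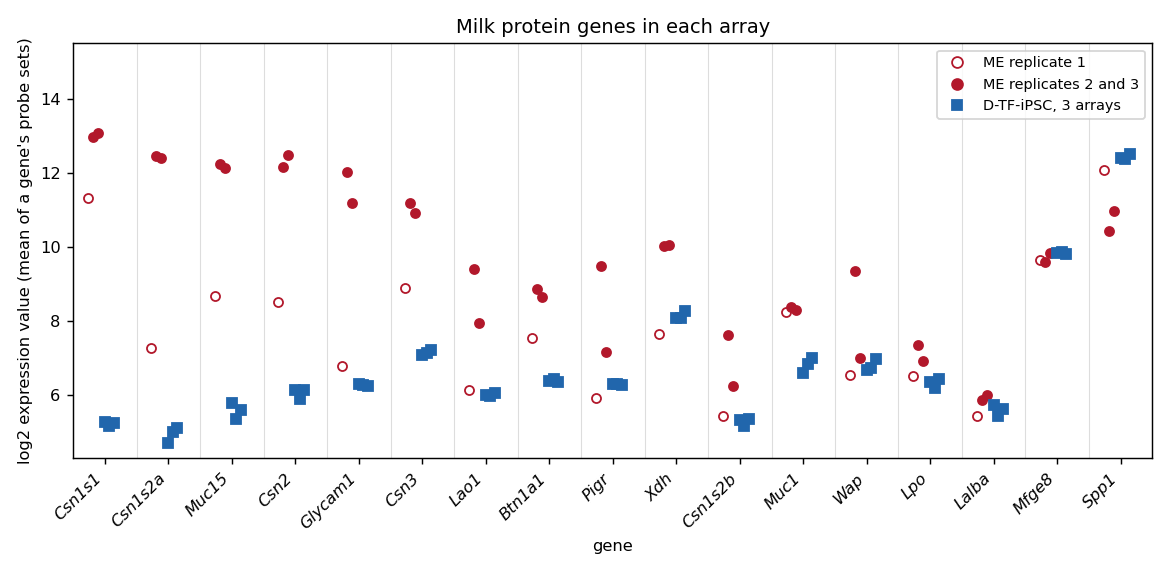
Log2 expression values (y axis) of the 17 milk protein genes (x axis, ordered by their difference without ME replicate 1), 1 point per array, with ME replicate 1 as an open circle, ME replicates 2 and 3 as filled circles and D-TF-iPSC as squares. Csn1s1, Csn1s2a and Muc15 stand at the left, and the open circle lies well below the filled circles for Csn1s2a (7.26 against 12.46 and 12.41) and Glycam1 (6.78 against 12.02 and 11.18).

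Genes of milk fat synthesis went both ways, with all arrays at a share near the 16.3% of all genes. Without ME replicate 1 the share of all genes was 39.1%. Of 22 measured genes, 2 were higher and 3 lower with all arrays (22.7% called), and 9 were higher and 9 lower without ME replicate 1 (81.8% called, median log2 difference 0.01 in both). The 2 higher genes with all arrays, named after their values were seen, were Acsl1, which activates long-chain fatty acids (1.94 and 2.53 without ME replicate 1), and the lipid droplet protein Plin2 (0.65 and 0.60). Higher without ME replicate 1 were Thrsp, a regulator of lipogenesis (6.07, 10.84 and 9.14 against 6.29, 6.10 and 6.12; log2 difference 3.82), the phosphatidate phosphatase Lpin1 (6.73, 10.39 and 10.05 against 6.62, 6.75 and 6.95; 3.44), the fatty acid carrier Fabp3 (5.97, 11.55 and 9.22 against 6.86, 6.86 and 7.35; 3.36) and Olah, the thioesterase that releases medium-chain fatty acids in the lactating gland (3.04). In the first 3 of these ME replicate 1 lay within or below the D-TF-iPSC range, and none passed with all arrays (adjusted p = 0.10, 0.081 and 0.29 by limma). Fabp3 was 2.19 without ME replicate 2 as well, and Olah was 1.81 by its brightest probe set. Lower in both fits were Scd2, a stearoyl-CoA desaturase (9.04, 6.62 and 7.21 against 10.01, 10.13 and 9.90; log2 difference -2.39 and -3.10 without ME replicate 1), the lipoprotein lipase Lpl (-1.02 and -0.69) and, named after its values were seen, Gpam, which starts triglyceride synthesis (-0.74 and -0.78). Lpl did not pass with all arrays when any single D-TF-iPSC array was left out (-1.09 to -0.94).

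Luminal genes that passed the test were nearly all higher. Of 17 genes of luminal progenitors and alveolar cells, 9 were higher and 0 lower with all arrays (52.9% called, median log2 difference 1.5), and 12 and 0 without ME replicate 1 (70.6% called, median 2.05). Lcn2, an iron-siderophore binder of luminal progenitors, had values of 12.50, 12.70 and 12.18 in ME against 9.33, 9.31 and 9.04 in D-TF-iPSC, a log2 difference of 3.24 (standard error 0.14, adjusted p = 5.1e-06 by limma) and of 3.22 without ME replicate 1, and the nucleoside transporter Slc28a3 had 10.20, 9.67 and 9.41 against 6.52, 6.69 and 6.50, a difference of 3.19 and of 2.97. Lcn2 in ME replicate 1 lay between the other ME arrays, and Slc28a3 was highest there. By the brightest probe set they were 1.92 and 4.81, both past the test. Of 17 hormone-sensing luminal genes, 7 were higher and 1 lower with all arrays (47.1% called, median 0.55), and 9 and 2 without ME replicate 1 (64.7% called, median 0.46). The simple-epithelium keratins led them: Krt19 had 10.75, 11.09 and 11.02 against 7.79, 7.76 and 7.32 (log2 difference 3.33, standard error 0.15, adjusted p = 5.1e-06, and 3.43 without ME replicate 1), Krt18 was higher by 2.90 and 2.88 and Krt8 by 2.84 and 2.77, and Tcfap2c, an AP-2 factor of luminal cells, by 2.49 (3.04 without ME replicate 1). Single values of Esr1, the oestrogen receptor gene, and of Pgr, Foxa1, Prom1 and Cited1, all members of this list, are not given here. The keratins and the luminal factor named above do not show whether hormone-sensing cells differed. The lower genes of the list were the phosphatase Ptpn5 (-0.54 and -0.71 without ME replicate 1) and, only without ME replicate 1, Tnfsf11, the RANK ligand that relays progesterone (-0.35). Ptpn5 passed in none of the 8 fits without another single array (-0.58 to -0.38), and Tnfsf11 not in 6 of the 7 fits without a further array (-0.38 to -0.26).

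Among 20 genes of the basal, myoepithelial layer, 9 were higher and 2 lower with all arrays (55% called, median log2 difference 0.54), and 12 and 5 without ME replicate 1 (85% called, median 0.50). Krt5, a keratin of the basal layer, had values of 12.14, 9.94 and 11.24 in ME against 8.79, 8.51 and 8.34 in D-TF-iPSC, a log2 difference of 2.56 (standard error 0.44, adjusted p = 0.0043 by limma) and of 2.04 without ME replicate 1. Krt17 was higher by 2.32 and 1.90, and Trp63, which encodes p63 and is needed for stratified and basal epithelia, by 2.15 and 2.06. Among the ME arrays replicate 2 was the lowest in all 3 genes. The brightest probe set of Trp63 gave 0.30 and 0.40 and passed in neither fit, and Krt17 was 1.16 without ME replicates 1 and 3. Genes of contraction went both ways: Myh11, a smooth muscle myosin heavy chain named after its values were seen, was higher by 1.17 and 1.13, while Myl9, a myosin light chain, had 11.10, 8.58 and 10.23 against 11.87, 11.80 and 11.78 (-1.85 and -2.41 without ME replicate 1), and without ME replicate 1 the actin-binding Tagln was lower with -1.40 and smooth muscle actin, Acta2, with -0.78. Lgr5, a receptor for R-spondins, was lower in both fits (-2.04 and -2.27), with 7.61, 6.57 and 7.28 against 9.00, 9.12 and 9.45. Myl9 did not pass in 7 of the 8 fits without a further array and was -1.15 without ME replicate 2, the exception. Without ME replicates 1 and 2, which leaves ME replicate 3 only, Tagln was -0.63 and Acta2 was -0.24.

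Genes that form or mark epithelial junctions were higher almost throughout. Of 29 measured genes, 27 were higher and 0 lower with all arrays (93.1% called, median log2 difference 1.80), and 28 and 0 without ME replicate 1 (96.6% called, median 1.82). Cldn1, a claudin of tight junctions, had values of 10.56, 10.89 and 11.05 in ME against 7.78, 7.59 and 7.40 in D-TF-iPSC, a log2 difference of 3.25 (standard error 0.16, adjusted p = 8.1e-06 by limma) and of 3.38 without ME replicate 1. Esrp1, a splicing regulator of epithelial cells, was higher by 3.15 and 3.16, Gjb2, connexin 26 of gap junctions, by 3.07 and 2.71, and Ppl, the desmosomal periplakin, by 2.58 and 3.06. The defining epithelial markers Cdh1 (E-cadherin; 11.65, 11.70 and 11.35 against 9.57, 9.46 and 9.29) and Epcam (10.49, 10.68 and 10.41 against 8.71, 8.87 and 8.58) were among them, with D-TF-iPSC values above the array medians. In Cdh1 and Epcam ME replicate 1 lay between the other ME arrays. The brightest probe set of Esrp1 gave 1.92.

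The Ceacam family, adhesion molecules of the immunoglobulin superfamily, was called at about the share of all genes (16.3%). Of 12 measured genes, Ceacam1 and Ceacam2 were higher and 0 lower with all arrays (16.7% called, median log2 difference 0.17), and 6 and 0 without ME replicate 1 (50% called, median 0.32). Ceacam2 had values of 6.43, 7.06 and 7.60 against 6.22, 6.01 and 6.12 (log2 difference 0.91, and 1.21 without ME replicate 1); it passed in none of the 8 fits without another single array (0.63 to 0.97). Ceacam10 (5.36, 7.85 and 6.31 against 5.05, 5.34 and 5.30) and Ceacam19 (6.32, 7.48 and 6.82 against 6.13, 6.18 and 6.17) were higher by 1.85 and 0.99 without ME replicate 1 and by 1.08 and 0.65, still past the test, without ME replicates 1 and 2; the brightest probe set of Ceacam19 gave 0.45 and did not pass.

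Keratinocyte genes had their highest mean in ME replicate 1. Of 18 genes of keratinocyte differentiation, 6 were higher and 1 lower with all arrays (38.9% called, median log2 difference 0.58), and 6 and 4 without ME replicate 1 (55.6% called, median 0.13). Their mean value was 7.72 in ME replicate 1, 6.85 and 6.75 in the other ME arrays and 6.50 to 6.59 in D-TF-iPSC. Tgm1, the transglutaminase that builds the cornified envelope, was higher by 1.75 and 2.01 without ME replicate 1, and Lgals7, a galectin of stratified epithelia, by 1.23 and 1.28. Dsg3, a desmosomal cadherin of the epidermis, had 10.47, 5.56 and 5.67 against 6.53, 6.46 and 6.14, so that ME replicate 1 lay above and the other ME arrays below D-TF-iPSC; its log2 difference was 0.86 (adjusted p = 0.67 by limma) with all arrays and -0.76 (adjusted p = 0.00087) without ME replicate 1. The brightest probe set of Lgals7 gave 5.40 and 5.30. With all arrays, only 1 of its 5 probe sets had every ME array above every D-TF-iPSC array. The median difference over its probe sets was 0.21.

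Collagens were lower in ME. Of 19 measured genes, 0 were higher and 14 lower with all arrays (73.7% called, median log2 difference -1.11), and 1 was higher and 15 lower without ME replicate 1 (84.2% called, median -1.14). Col12a1, which bridges collagen fibrils, had values of 10.86, 7.86 and 8.58 in ME against 12.05, 12.19 and 12.29 in D-TF-iPSC, a log2 difference of -3.08 (standard error 0.61, adjusted p = 0.0085 by limma) and of -3.96 without ME replicate 1. Col5a2, which sets fibril width, had 8.48, 7.10 and 7.86 against 10.67, 10.79 and 10.79 (-2.94 and -3.27), Col8a1 8.75, 6.98 and 6.97 against 10.52, 10.30 and 10.39 (-2.84 and -3.43), and Col1a2, a chain of type I collagen, 9.04, 8.38 and 8.97 against 11.12, 11.14 and 11.09 (-2.33 and -2.45). Every ME array lay below every D-TF-iPSC array in these 4 genes, as in 14.9% of all genes. The exception was Col14a1, a fibril-associated collagen, with 7.30, 9.32 and 10.56 against 8.15, 8.07 and 8.08: ME replicate 1 lay below and the other ME arrays above D-TF-iPSC, and its log2 difference was 0.96 (adjusted p = 0.37) with all arrays and 1.84 (adjusted p = 0.00050) without ME replicate 1. With the brightest probe set, Col5a2 was -1.57, Col12a1 -2.02 and Col1a2 -0.36, the last no longer past the test with all arrays, and Col14a1 was -0.22 without ME replicate 1.

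The enzymes that modify, cleave and cross-link collagen were lower as well. Of 24 measured genes, 2 were higher and 19 lower with all arrays (87.5% called, median log2 difference -1.44), and 2 and 21 without ME replicate 1 (95.8% called, median -1.56). P4ha3, a subunit of prolyl 4-hydroxylase, which stabilises the triple helix, had values of 9.06, 6.52 and 6.20 against 10.89, 10.80 and 10.90, a log2 difference of -3.61 (standard error 0.61, adjusted p = 0.0039 by limma) and of -4.51 without ME replicate 1. The lysyl oxidase-like cross-linking enzymes Loxl2 (8.63, 7.48 and 8.02 against 10.70, 10.71 and 10.64) and Loxl3 were lower, Loxl2 with -2.64 and -2.93 without ME replicate 1 and Loxl3 with -2.28 and -2.64, as was Pcolce, which enhances removal of the procollagen C-propeptide, with -2.40 and -2.55. The higher genes were Leprel1, a prolyl 3-hydroxylase (0.91 and 0.99 without ME replicate 1), and Adamts3, a procollagen N-propeptidase (0.65 and 0.49). Adamts3 turned to -0.20 and -0.10 with its brightest probe set and did not pass with all arrays without D-TF-iPSC replicate 2 or 3 (0.63 to 0.64).

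With all arrays, the metalloproteinases that passed the test were lower with 1 exception. Of 23 metalloproteinases and their inhibitors, 1 was higher and 10 lower with all arrays (47.8% called, median log2 difference -0.89), and 3 and 14 without ME replicate 1 (73.9% called, median -1.17). After Mmp13, the largest values were those of Mmp12, the macrophage elastase (9.07, 6.44 and 6.39 against 10.23, 10.22 and 10.29; log2 difference -2.95, adjusted p = 0.0096 by limma, and -3.84 without ME replicate 1), and Mmp23 (7.44, 7.21 and 7.53 against 9.69, 9.69 and 9.41; -2.21 and -2.23). Timp1, an inhibitor of these proteases, had 11.52, 7.87 and 8.35 against 11.59, 11.71 and 11.52, and was lower only without ME replicate 1 (-3.50, adjusted p = 1.4e-07; with all arrays -2.36, adjusted p = 0.067); ME replicate 1 equalled the lowest D-TF-iPSC array at 2 decimals. The higher gene was Mmp15, a membrane-type protease (0.46 and 0.58 without ME replicate 1), which passed in none of the 8 fits without another single array (0.36 to 0.52) and was not past the test in either fit by its brightest probe set (0.11 with all arrays). The promoters of Mmp13 and Mmp12, which lie in a cluster of these genes on chromosome 9, are shown because they led the list and both hold the AP-1 motif TGACTCA, read as TGAGTCA on the other strand and given in capitals, at chr9:7272264-7272563 and chr9:7347124-7347423 of GRCm38.p6, both on the plus strand.
Mmp13: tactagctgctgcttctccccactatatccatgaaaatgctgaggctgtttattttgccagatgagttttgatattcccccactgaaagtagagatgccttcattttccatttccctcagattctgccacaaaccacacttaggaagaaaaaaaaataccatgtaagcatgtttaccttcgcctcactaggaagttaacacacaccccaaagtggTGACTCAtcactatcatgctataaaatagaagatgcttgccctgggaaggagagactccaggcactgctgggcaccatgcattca
Mmp12: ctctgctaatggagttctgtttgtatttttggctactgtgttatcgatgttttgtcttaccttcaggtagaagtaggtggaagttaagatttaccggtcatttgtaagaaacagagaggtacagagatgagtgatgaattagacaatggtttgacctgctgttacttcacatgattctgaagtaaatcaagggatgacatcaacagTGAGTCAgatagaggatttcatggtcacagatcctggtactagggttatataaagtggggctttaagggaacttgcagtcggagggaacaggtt
The motif began 35 bases before the start of Mmp13 and 44 bases before that of Mmp12. It stood in 5.2% of all promoter windows and in 5 of 21 windows (23.8%) of the 18 genes of this list found in the table, the other 3, named for this match alone, being Mmp3, Mmp7 and Mmp10. Of these, Mmp3 was lower in both fits (-0.97 and -1.17), Mmp10 only without ME replicate 1 (-1.40), and Mmp7 in neither (0.07 and 0.12).

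**Figure D3:**
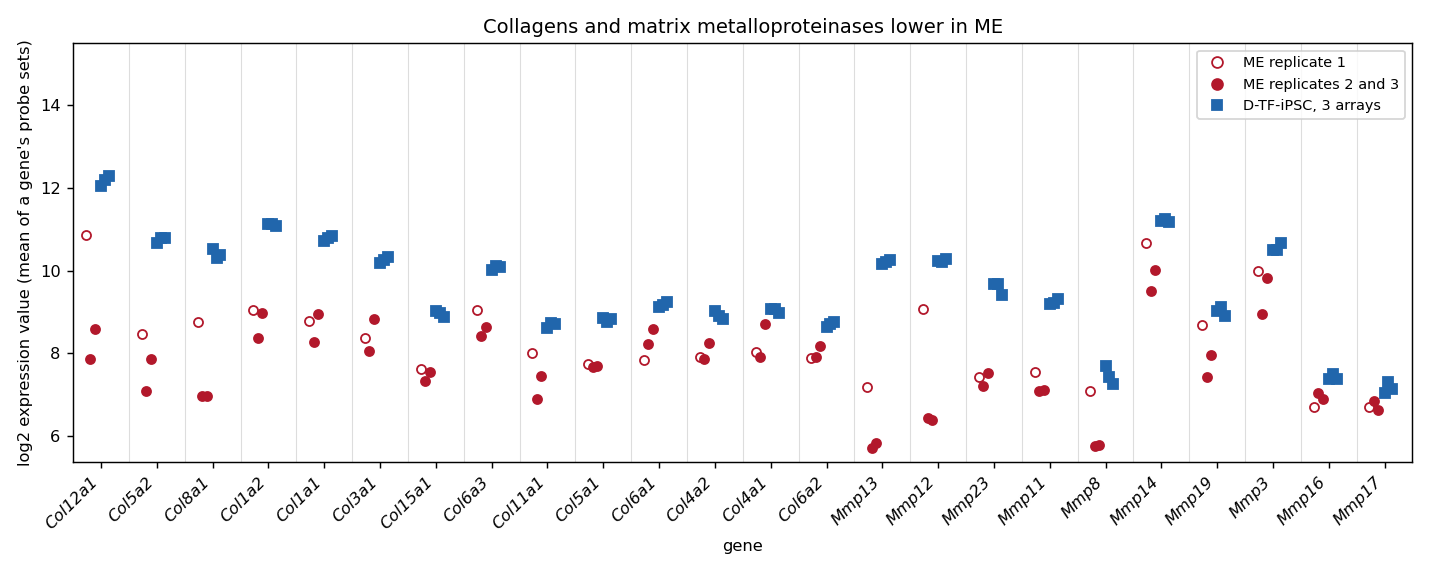
Log2 expression values (y axis) of the 14 collagens and 10 metalloproteinases (x axis) that were lower in ME than in D-TF-iPSC with all arrays, 1 point per array, with ME replicate 1 as an open circle, ME replicates 2 and 3 as filled circles and D-TF-iPSC as squares. The squares lie close together above the circles, and the open circle is the highest ME point for Col12a1 (10.86) and Mmp12 (9.07).

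The ADAMTS proteases, secreted relatives of the metalloproteinases, went both ways. Of 22 measured genes, 3 were higher and 7 lower with all arrays (45.5% called, median log2 difference -0.20), and 8 and 7 without ME replicate 1 (68.2% called, median -0.12). After Adamts6, lower genes were Adamts12 (8.87, 7.40 and 8.13 against 10.51, 10.67 and 10.51; log2 difference -2.43 and -2.80 without ME replicate 1), the aggrecanase Adamts5 (10.01, 8.67 and 8.77 against 11.30, 11.29 and 11.47; -2.20 and -2.63) and the procollagen peptidase Adamts2 (-1.42 and -1.37). Higher were Adamts1 (0.70 and 0.71), Adamts3 and Adamts20, the last named after its values were seen (0.54 and 0.44), and without ME replicate 1 also Adamts18 (6.39, 6.91 and 7.79 against 6.12, 6.18 and 6.04; 1.24) and Adamts15 (0.78), which were 0.80 and 0.49 without ME replicates 1 and 3. Adamts1 did not pass with all arrays when any single D-TF-iPSC array was left out (0.69 to 0.71), and by the brightest probe set Adamts1 and Adamts18 did not pass without ME replicate 1 (0.32 and 0.34).

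For all genes the share called was 16.3% with all arrays and 39.1% without ME replicate 1. The S100 family, small calcium-binding proteins, was called in both directions, with all arrays at a share near that of all genes. Of 17 measured genes, 2 were higher and 2 lower with all arrays (23.5% called, median log2 difference 0.14), and 4 and 5 without ME replicate 1 (52.9% called, median 0.12). S100a14, a member of epithelia, had values of 10.07, 8.34 and 8.95 against 6.23, 6.62 and 6.15, a log2 difference of 2.79 (adjusted p = 0.0010 by limma) and of 2.31 without ME replicate 1. The others called with all arrays were S100a1 (0.43 in both fits) and S100pbp (-0.39 and -0.44), which lost the call in 3 and 5 of the 8 fits without another single array (0.34 to 0.47 and -0.42 to -0.37). S100a6 was lower only without ME replicate 1 (-1.04), with 10.75, 9.57 and 9.51 against 10.46, 10.77 and 10.51.

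Genes that identify fibroblasts and mesenchyme were lower in ME with a few exceptions. Of 30 measured genes, 1 was higher and 22 lower with all arrays (76.7% called, median log2 difference -1.23), and 4 and 24 without ME replicate 1 (93.3% called, median -1.29). Sfrp1, a secreted Wnt antagonist, had values of 8.45, 8.26 and 7.79 against 10.87, 11.22 and 11.44, a log2 difference of -3.01 (standard error 0.19, adjusted p = 2.0e-05 by limma) and of -3.15 without ME replicate 1. The matrix glycoprotein Fbln2 was lower with -2.86 (-3.11 without ME replicate 1), the PDGF receptor Pdgfrb with -2.86 (-3.55) and the mesenchymal cadherin Cdh11 with -2.66 (-3.40). Of the defining fibroblast markers, Fap, Pdgfra, Prrx1, Thy1, Postn and Twist2 were lower in both fits. The higher genes were the small matrix proteoglycans Lum and Dcn, the matrix protein Dpt and the mesenchymal factor Tcf21. Lum, with 9.02, 10.30 and 10.83 against 8.31, 8.19 and 8.04, was higher by 1.87 and by 2.39 without ME replicate 1, and only without it were Dpt (8.10, 11.49 and 12.03 against 9.07, 9.39 and 9.53; 2.43), Dcn (11.21, 12.40 and 12.66 against 11.48, 11.33 and 11.57; 1.07) and Tcf21 (0.58) higher. These are RNA levels of whole samples, in which fewer cells of a type and less RNA per cell cannot be told apart. By the brightest probe set Fbln2 was -0.95 with all arrays, not past the test, and -1.23 without ME replicate 1.

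Immediate early genes, switched on within minutes of a stimulus and also by tissue dissociation, were higher in ME. Of 32 measured genes of this list, 23 were higher and 0 lower with all arrays (71.9% called, median log2 difference 0.92), and 27 and 0 without ME replicate 1 (84.4% called, median 1.09). Next to Atf3, the heat shock protein Hspa1a had values of 10.02, 12.36 and 12.93 against 8.50, 8.91 and 8.51 (log2 difference 3.13, adjusted p = 0.0077 by limma, and 4.00 without ME replicate 1), the antiproliferative Btg2 9.50, 11.77 and 11.70 against 8.44, 8.45 and 8.24 (2.62 and 3.36), and the orphan receptor Nr4a1 8.99, 9.59 and 10.53 against 7.30, 7.26 and 7.32 (2.41 and 2.76). ME replicate 1 was the lowest ME array in each, and still above D-TF-iPSC. The mean of the list was 9.05, 9.52 and 9.73 in the ME arrays and 8.31 to 8.42 in D-TF-iPSC. Klf4 and Myc, which were also delivered as transgenes to the D-TF-iPSC lines, belong to the list and were higher in ME (named after their values were seen; Klf4 1.17 and 1.27 without ME replicate 1, Myc 0.87 and 1.09).

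Genes of the integrated stress response were lower for the most part where they differed. Of 24 measured genes of this and of the unfolded protein response, 1 was higher and 10 lower with all arrays (45.8% called, median log2 difference -0.18), and 5 and 10 without ME replicate 1 (62.5% called, median -0.09). The lower genes with the largest differences were enzymes of serine and one-carbon metabolism: Aldh1l2, a mitochondrial folate enzyme, had values of 8.56, 6.96 and 7.47 against 10.61, 10.69 and 10.52 (log2 difference -2.94, adjusted p = 0.00043 by limma, and -3.39 without ME replicate 1), Psph had -1.10 and -1.26, and Phgdh -0.94 and -0.93. The higher gene was Dnajb9, a chaperone of the endoplasmic reticulum (10.43, 10.97 and 11.32 against 9.69, 9.71 and 9.75; 1.19 and 1.43), joined without ME replicate 1 by Ero1l (0.86), Atf4 (0.42), Hspa5 (0.42) and, named after its values were seen, Xbp1 (0.42). Phgdh was not past the test with all arrays by the median of its probe sets, Hspa5 by neither the median (0.21) nor the brightest (0.03) probe set, and Atf4 was not past it by the median (0.25).

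Inflammatory cytokines and chemokines were higher. Of 27 measured genes, 17 were higher and 4 lower with all arrays (77.8% called, median log2 difference 1.13), and 19 and 4 without ME replicate 1 (85.2% called, median 1.07). The neutrophil-attracting chemokine Cxcl2 had values of 8.77, 11.80 and 12.38 against 6.14, 6.46 and 6.10, a log2 difference of 4.75 (standard error 0.75, adjusted p = 0.0029 by limma) and of 5.86 without ME replicate 1. Nfkbia, the inhibitor of NF-kappaB that the factor itself induces, had 10.41, 11.38 and 11.48 against 7.98, 7.83 and 7.58 (3.29 and 3.64), and Cxcl1 9.14, 10.45 and 11.23 against 7.63, 7.70 and 7.70 (2.6 and 3.16). The lower genes were Cxcl14 (9.68, 9.30 and 9.06 against 10.59, 10.52 and 10.53; -1.20 and -1.37), the stromal chemokine Cxcl12 (-0.79 and -0.89), the macrophage growth factor Csf1 (-1.40 and -1.91) and Ccl7 (-0.68 and -0.54). Ccl7 lost its call in 7 of the 8 fits without another single array (-0.70 to -0.57), Csf1 in 5 (-1.42 to -1.12) and Cxcl12 in the 3 without a D-TF-iPSC array (-0.85 to -0.75). By the brightest probe set Cxcl1 was 0.74 with all arrays and not past the test.

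Interferon response genes passed the test in both directions. Of 20 measured genes, 1 was higher and 8 lower with all arrays (45% called, median log2 difference -0.38), and 4 and 9 without ME replicate 1 (65% called, median -0.49). Isg15, a ubiquitin-like protein, had values of 8.63, 7.14 and 7.08 against 10.05, 9.98 and 10.03, a log2 difference of -2.41 (adjusted p = 0.0018 by limma) and of -2.91 without ME replicate 1, and Oasl2 was lower with -1.25 and -1.47 and the signal transducer Stat2 with -1.18 and -1.29. Ifi44 had -2.21, passed in none of the 8 fits without another single array (-2.26 to -1.51), and had -3.07 without ME replicate 1. The higher gene was the transcription factor Irf1 (0.75 in both fits), and without ME replicate 1 also the immunoproteasome subunits Psmb8 (8.68, 10.09 and 8.58 against 8.12, 8.01 and 8.16; 1.24) and Psmb9 (1.20) and the antiviral Rsad2 (1.08). ME replicate 2 was the highest array in these last 3 genes, and without it and ME replicate 1 they were 0.48, 0.74 and 0.39. Oasl2 was not past the test with all arrays by the median of its probe sets.

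Markers of other cells that a mammary gland or a culture could hold were counted in the same way. Of 21 macrophage and myeloid genes, 2 were higher and 8 lower with all arrays (47.6% called, median log2 difference -0.27), and 6 and 10 without ME replicate 1 (76.2% called, median -0.18), with a mean value of 6.60, 7.29 and 7.00 in ME and 7.31 to 7.42 in D-TF-iPSC. Lyz2, the lysozyme of macrophages, had 8.90, 9.18 and 7.35 against 11.71, 11.81 and 12.03, a log2 difference of -3.37 (adjusted p = 0.00062 by limma) and of -3.58 without ME replicate 1. Emr1, a macrophage surface receptor, was lower with -1.21 and -1.08 and the adaptor Tyrobp with -1.18 and -1.13, and both passed in neither fit by the brightest probe set (0.11 and -0.21 with all arrays). The receptor Csf1r had 6.89, 6.22 and 6.27 against 6.62 to 6.68, and Cd68 7.84, 11.03 and 10.03 against 9.34 to 9.69. Unlike Lyz2, Emr1 and Tyrobp, Cd68 was higher without ME replicate 1 (0.98, adjusted p = 0.011 by limma). With all arrays it did not pass (0.08). Cd74, another member of the list, was also higher only without ME replicate 1 (1.49, adjusted p = 0.00077 by limma). The class II genes H2-Aa and H2-Ab1 were higher with 1.05 and 1.20 (1.35 and 1.28 without ME replicate 1); H2-Aa lost the call with all arrays in 6 of the 8 fits without another single array (0.99 to 1.12) and H2-Ab1 in the 3 without a D-TF-iPSC array (1.18 to 1.21), and by its brightest probe set H2-Aa was -0.23 and -0.09. The part of these cells in the results above was not tested.

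All genes had 16.3% called with all arrays and 39.1% without ME replicate 1. Without it, the lymphocyte and pericyte lists stayed below the share of all genes. Of 14 lymphocyte genes, 0 differed with all arrays (median log2 difference 0.23) and 5 were higher and 0 lower without ME replicate 1 (35.7% called, median 0.25). Their mean value was 6.49 in ME replicate 2, 5.74 and 5.95 in the other ME arrays and 5.72 to 5.81 in D-TF-iPSC. The largest was Ccl5 (7.69, 10.23 and 8.57 against 7.82, 7.68 and 7.76; 1.65 without ME replicate 1, and 0.82 without ME replicate 2 as well), while the T cell marker Cd3e had 6.60, 6.97 and 6.72 against 6.52 to 6.77. Of 15 endothelial genes, 0 were higher and 5 lower with all arrays (33.3% called, median -0.23), and 1 and 9 without ME replicate 1 (66.7% called, median -0.40). Cdh5, the cadherin of endothelium, had 9.07, 7.85 and 7.83 against 9.46, 9.50 and 9.42 (-1.21 and -1.62) and Pecam1 8.15, 6.82 and 6.89 against 8.46, 8.54 and 8.41 (-1.18 and -1.61), so ME replicate 1 again lay near D-TF-iPSC; both lost the call with all arrays in 5 of the 8 fits without another single array (-1.23 to -1.0 and -1.21 to -0.95). Of 13 adipocyte genes, Pnpla2, a triglyceride lipase, was the 1 higher gene and 0 were lower with all arrays (1.54, and 1.80 without ME replicate 1; 7.69% called, list median 0.11), and 5 were higher and 1 lower without ME replicate 1 (46.2% called, median 0.20). The defining adipocyte genes Adipoq (4.75, 5.36 and 4.85 against 4.64 to 4.97) and Plin1 (6.88, 7.34 and 7.17 against 6.87 to 7.22) did not differ by the test. Other members did so only without ME replicate 1. Among them Car3 (5.63, 7.20 and 7.17 against 5.94, 5.92 and 6.08) and Cidea were higher by 1.21 each and Lipe by 0.49. Pparg was lower with -0.47. Of 9 pericyte and vascular smooth muscle genes, 0 were higher and 2, Cspg4 and Des, lower with all arrays (Cspg4 -0.49, and -0.61 without ME replicate 1; Des -0.51 and -0.57; 22.2% called, median -0.05), and 0 and 3 without ME replicate 1 (33.3% called, median 0.01); Cspg4 passed in none and Des in 1 of the 8 fits without another single array (-0.53 to -0.39 and -0.55 to -0.41).

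The shares in this paragraph stand beside 16.3% of all genes with all arrays and 39.1% without ME replicate 1. Genes of pluripotent cells had a low mean value in both groups, 5.8 to 6.14 in ME and 5.89 to 5.98 in D-TF-iPSC. Of 19 measured genes, 0 differed with all arrays (median log2 difference 0.04), and 2 were higher and 0 lower without ME replicate 1 (10.5% called, median 0.12), Utf1 (6.28, 7.38 and 6.57 against 6.12, 6.17 and 6.24; 0.80, and 0.40 without ME replicate 2 as well) and Dppa5a (0.38). Pou5f1, which encodes Oct4, had values of 5.46 to 5.96 over the 6 arrays, and Nanog of 6.78 to 7.25. Medians over genes in these arrays were 7.1 to 7.15, so Nanog lay near the level of a median gene. Of 15 endoderm and yolk sac genes, 0 were higher and 2, Cubn and Gata6, lower with all arrays (Cubn -0.89, and -1.06 without ME replicate 1; Gata6 -0.95 and -1.0; 13.3% called, median 0.05), and 2 and 3 without ME replicate 1 (33.3% called, median 0.12); by the brightest probe set both failed the test in both fits, and Cubn was 0.06 with all arrays and 0.52 without ME replicate 1. Of 14 genes of skeletal and cardiac muscle, 0 differed with all arrays (median -0.01) and 0 were higher and 2 lower without ME replicate 1 (14.3% called, median 0.02). Of 14 neural genes, 1 was higher and 3 lower with all arrays (28.6% called, median -0.10), and 1 and 5 without ME replicate 1 (42.9% called, median -0.13). Ncam1, an adhesion molecule of neural and mesenchymal cells, had 9.39, 7.19 and 7.20 against 11.15, 11.05 and 10.85 (-3.09 and -3.82), Tubb3, a neuronal tubulin, was lower with -2.15 and -2.65, and the microtubule protein Mtap2 was higher with 1.43 and 1.70.

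Imprinted and Hox genes, which record parental origin and body position, were lower where they differed with all arrays. Of 20 imprinted genes, 0 were higher and 10 lower (50% called, median log2 difference -0.64), and 0 and 11 without ME replicate 1 (55% called, median -0.87). Meg3 and Rian, noncoding RNAs of one imprinted cluster, had values of 6.94, 7.61 and 9.00 against 10.43, 10.50 and 10.39 and of 7.25, 8.24 and 7.66 against 10.28, 10.19 and 10.16, log2 differences of -2.59 (adjusted p = 0.0030 by limma) and -2.50 (adjusted p = 9.0e-05). Here ME replicate 1 was the ME array farthest from D-TF-iPSC, and without it the differences were -2.13 and -2.26; Meg3 was -1.49 with array weights. Mest was lower with -1.89 and -2.30 and the growth factor receptor adaptor Grb10 with -1.74 and -1.95. Of 38 Hox genes, 0 were higher and 18 lower with all arrays (47.4% called, median -0.38), and 2 and 18 without ME replicate 1 (52.6% called, median -0.34). The largest differences lay in the HoxC cluster and in Hoxb9: Hoxc6 had 7.55, 7.00 and 6.92 against 9.08, 9.20 and 8.97 (-1.93 and -2.12), Hoxc8 8.06, 7.11 and 7.28 against 9.61, 9.29 and 9.26 (-1.91 and -2.19), Hoxb9 6.80, 7.08 and 6.95 against 8.44, 8.63 and 8.72 (-1.65 and -1.58) and Hoxc13, the most posterior of the 4, 6.01, 6.27 and 5.70 against 7.65, 7.66 and 7.5 (-1.61 in both fits). In these 4 genes all ME arrays lay below all D-TF-iPSC arrays, as in 14.9% of all genes.

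No gene of cell division or of cholesterol synthesis passed with all arrays. Of 29 cell division genes, 0 differed with all arrays (median log2 difference 0.04), and 1 was higher and 5 lower without ME replicate 1 (20.7% called, median -0.34). Both shares lay below those of all genes (16.3% and 39.1%). Their mean value was 9.72, 7.96 and 8.92 in ME replicates 1 to 3 and 8.75 to 8.90 in D-TF-iPSC, so that the ME arrays spread on both sides of D-TF-iPSC. Rrm2, a subunit of ribonucleotide reductase, had 10.54, 6.68 and 7.93 against 9.60, 9.72 and 9.56 (-2.32 without ME replicate 1). Of 14 genes of cholesterol synthesis, 0 differed with all arrays (median -0.47), and 0 were higher and 12 lower without ME replicate 1 (85.7% called, median -0.98). Cyp51, the lanosterol demethylase, had 9.84, 8.19 and 8.51 against 9.65, 9.83 and 9.64 (-0.86, adjusted p = 0.14 by limma, and -1.36, adjusted p = 2.6e-05, without ME replicate 1), and Fdps had 9.95, 8.12 and 8.39 against 9.55, 9.42 and 9.41 (-1.21 without ME replicate 1).

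Of 18 genes of glycolysis and hypoxia, 2 were higher and 4 lower with all arrays (33.3% called, median log2 difference -0.29), and 3 and 7 without ME replicate 1 (55.6% called, median -0.23). Carbonic anhydrase 9, Car9, was higher with 1.17 and 1.21 but not in 6 of the 8 fits without another single array (1.14 to 1.21). The glucose transporter Slc2a1 had values of 11.17, 12.18 and 12.37 against 11.08, 10.97 and 10.87 (0.93 and 1.30 without ME replicate 1) and Egln3, an oxygen-sensing hydroxylase, 7.85, 10.80 and 10.66 against 8.23, 7.94 and 7.99 (2.68 without ME replicate 1), while the glycolytic aldolase Aldoa was lower with -0.53 and -0.60. Slc2a1 passed with all arrays in none of the 8 fits without another single array (0.70 to 0.99), and Aldoa not by the median of its probe sets (-0.35). Of 25 genes of TGF-beta and BMP signalling, 4 were higher and 4 lower with all arrays (32% called, median 0.01), and 7 and 10 without ME replicate 1 (68% called, median -0.04). Id2, a target of BMP signals needed for alveolar growth in mice, had 9.13, 8.98 and 9.39 against 6.72, 6.65 and 6.92 (2.40, standard error 0.13, adjusted p = 1.3e-05, and 2.42 without ME replicate 1), Bmp7 was higher with 1.30 and 1.08 and follistatin, Fst, with 1.18 and 1.02. The latent TGF-beta binding protein Ltbp2 had 9.52, 8.09 and 7.96 against 10.43, 10.39 and 10.17 (-1.80 and -2.30), and Fstl1 was lower with -1.63 and -1.78 and Tgfb3 with -1.39 and -1.73. Bmp7 was 0.63 without ME replicates 1 and 3, and Fstl1 was -0.86 by its brightest probe set.

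**Figure D4:**
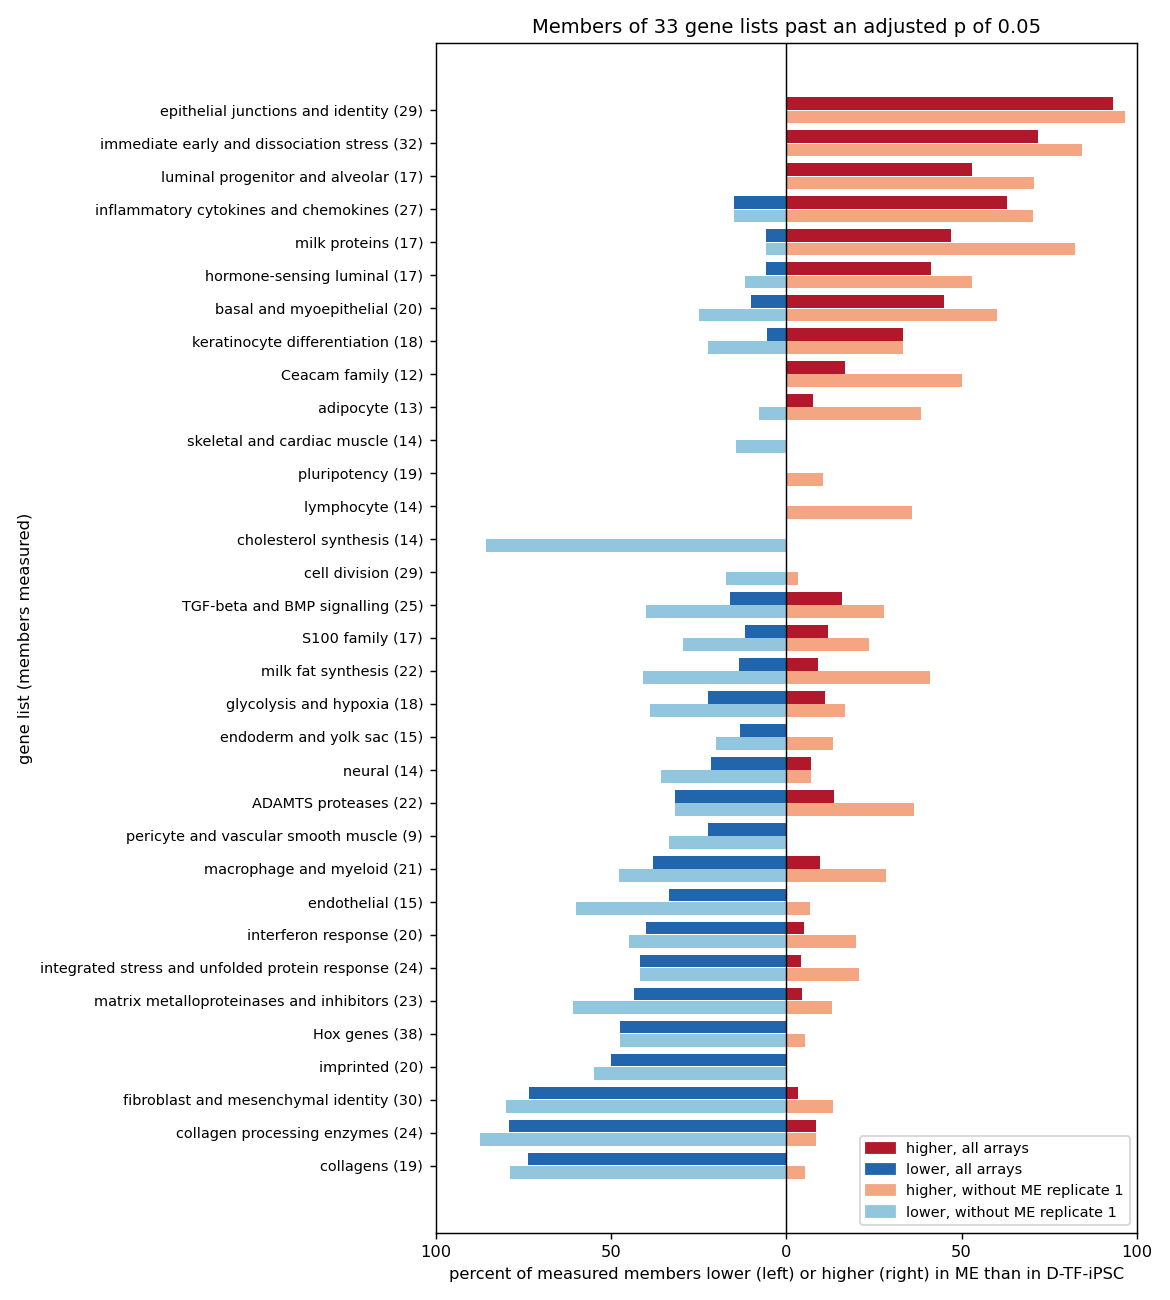
Percent of the measured members of 33 gene lists (y axis, number of members in brackets) that were lower (left) or higher (right) in ME than in D-TF-iPSC at an adjusted p under 0.05, with all arrays in dark and without ME replicate 1 in light bars. Junction genes (27 of 29 higher) and immediate early genes (23 of 32 higher) stand at the top, collagens (14 of 19 lower) and their processing enzymes (19 of 24 lower) at the bottom, and the cholesterol list has members past the test (12 of 14) only in the light bars. Over all genes, 7.5% were higher and 8.78% lower with all arrays, and 16.4% and 22.8% without ME replicate 1.

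A last group of 4666 genes, 1810 higher and 2856 lower, passed the test only without ME replicate 1. Tnc, the matrix protein tenascin C, had values of 12.40, 7.14 and 7.48 in ME against 12.37, 12.38 and 12.36 in D-TF-iPSC, a log2 difference of -3.36 (standard error 1.13) with all arrays and of -5.06 (adjusted p = 5.3e-09 by limma) without ME replicate 1; the D-ME-iPSC arrays had 12.30, 12.27 and 12.25. Inhba, the beta A chain of activin, had 11.59, 6.70 and 6.86 against 11.18, 11.15 and 11.02 (-2.73 and -4.34), Ddah1, which breaks down methylated arginine, 11.58, 7.46 and 7.77 against 11.74, 11.75 and 11.81 (-2.83 and -4.15), Ankrd1 11.74, 6.33 and 7.05 against 10.91, 10.76 and 10.63 (-2.39 and -4.07), and the intermediate filament Nes 9.27, 5.81 and 5.79 against 9.23, 9.03 and 8.76 (-2.05 and -3.21). In these 5 genes ME replicate 1 and the cultures were high, and ME replicates 2 and 3 alone were low. On the higher side, beside Thrsp, Lpin1 and Fabp3, stood the decoy receptor Il1r2 (5.96, 8.74 and 10.02 against 5.96, 6.12 and 5.80; 3.42), the zinc finger factor Zbtb16 (6.23, 10.34 and 10.12 against 6.99, 7.03 and 6.90; 3.25), Ifi205 (8.49, 12.03 and 12.23 against 8.95, 8.81 and 9.10; 3.18) and Sectm1b (3.27). BC018473, with 1 probe set, was called at 3.24 (adjusted p = 0.044) on ME replicate 2 alone (6.32, 12.08 and 6.81 against 6.13, 6.17 and 6.32), was 0.60 without that array, and did not pass in any of the 6 fits that left out an array of either culture. The brightest probe set gave -1.48 for Ankrd1 and 1.85 for Sectm1b, both past the test.

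**Figure D5:**
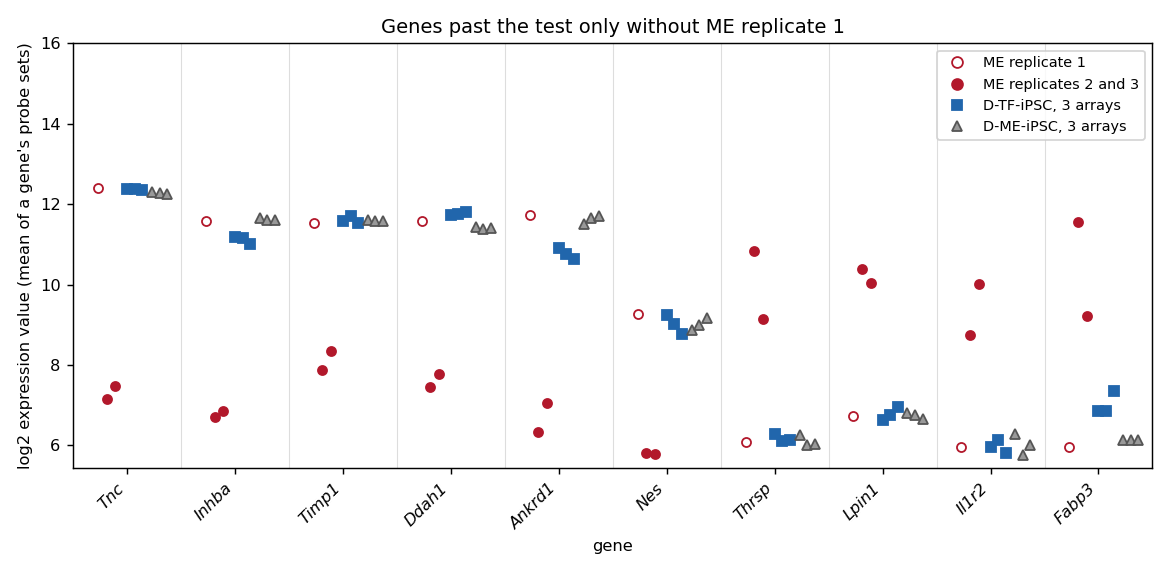
Log2 expression values (y axis) of 10 genes (x axis) that passed the test only without ME replicate 1, 1 point per array, with ME replicate 1 as an open circle, ME replicates 2 and 3 as filled circles, D-TF-iPSC as squares and D-ME-iPSC as triangles. For Tnc the open circle (12.40), the squares and the triangles lie together above the filled circles (7.14 and 7.48), and for Lpin1 they lie together below them.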

How the data were processed

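The samples were mouse gene arrays (Mo Gene 1.0 ST, total RNA, biotin label), 3 of ME, 3 of D-TF-iPSC and 3 of D-ME-iPSC. The authors deposited log2 values per probe set, made by their methods with RMA and Partek, versions not given in the sources used here; RMA shrinks weak signals together, so differences of dim genes are understated. Depth has no counterpart on arrays, and the number of arrays limits the precision. Of 241576 probe sets, 212138 had 1 gene symbol in the platform annotation, 4672 several and 24766 none; the first were averaged per gene. Groups came from the sample titles.

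ME was compared with D-TF-iPSC by limma 3.58.1 in R 4.3.3 (lmFit and eBayes on 9 arrays, 1 mean per group, two-sided, Benjamini-Hochberg adjustment over 20422 genes, threshold 0.05), and again without ME replicate 1. The script was tested on simulated data. The methods name Student's t-test, which was run as an alternative, beside other normalizations, probe set summaries, array weights, a replicate block and leaving out each array; a lone array in a group was assumed to vary like the other groups. Gene lists held 693 entries, of which 672 were measured; 21 were not analysed here. The members, lists and named genes were chosen with earlier results of these data known. Named genes were the 8 that mark the comparison, the 12 with the largest difference each way among called genes whose arrays did not overlap, the 8 each way called only without ME replicate 1, up to 4 called members each way of each list, and the sex-linked genes. The plan also listed the genes that the study's text names, but the naming step left them out. The study's genes Cldn3, Cldn4, Cldn7, Vim and Fbln1 were therefore counted with their lists only, and Prrx1 was given by its direction only. Promoters were read from RefSeq's table for GRCm38.p6.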

Additional observations from a re-analysis of the deposited data

Results flagged for a closer look

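Probe sets outside the gene table also carried differences between ME and D-TF-iPSC. Of the 24766 probe sets with no gene symbol, 670 passed limma at an adjusted p under 0.05, 320 of them above and 350 below D-TF-iPSC; leaving out ME replicate 1 gave 1298 above and 1628 below. Of the 4672 probe sets with several symbols, 189 passed, 89 higher and 100 lower, and without ME replicate 1 the counts were 325 and 348. These probe sets entered no comparison of named genes.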

How the results depend on the processing

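All 3326 genes called with all arrays were called again, in the same direction, without ME replicate 1. With all arrays, the count of 3326 moved by over 1.5 times to 2207 with the brightest probe set of each gene, 1752 with only the arrays of the 2 groups, 12267 with array weights, 623 by the methods' t-test after adjustment, 5972 at an unadjusted p under 0.05, 1646 at an adjusted p under 0.01 and 1220 with a fold of at least 2 as well; leaving out 1 array gave 1824 (without D-TF-iPSC replicate 2) to 7992 (without ME replicate 1), with 1964 and 1930 without D-TF-iPSC replicates 1 and 3. The array weights of ME replicates 1 to 3 were 0.0658, 0.142 and 8.98. Without ME replicate 1, the count of 7992 moved to 5176 with array weights, 3400 by the adjusted t-test and 2147 with a fold of at least 2, and leaving out a further array gave 6519 to 10572. Median centring turned the split with all arrays from 1532 higher and 1794 lower to 1757 and 1592, with a median difference of all genes of 0.05.

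Same-numbered arrays of both groups deviated from their group means with correlations of 0.09, -0.10 and 0.16, and differently numbered arrays with -0.17 to 0.11. These values cannot decide whether the numbers pair the samples. Deviations from a mean of 3 arrays depend on each other, and ME replicate 1 stood apart from its group. With the replicate block 2805 and 7093 genes were called. Some called genes turned direction with another probe set summary. With the brightest probe set and all arrays, Adamts3 was -0.20, H2-Aa -0.23, Emr1 0.11 and Cubn 0.06, and with the median probe set S100pbp was 0.03. Without ME replicate 1, the brightest probe set gave Col14a1 -0.22, Adamts3 -0.10, Mmp25 -0.21, H2-Aa -0.09, Emr1 0.24, Pparg 0.50, Heyl 0.02, Cubn 0.52 and Tnnt2 0.32, and the median probe set Ccl7 0.08. The causes of these moves were not tested. Of the values of named genes under all alternatives, 2506 kept direction and side of the threshold with all arrays, 444 kept direction only and 5 turned; without ME replicate 1 the counts were 4190, 380 and 10.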
